A study of Mus musculus with 6 samples.

Results

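Expression of 10 genes of the circadian clock was followed in mouse skin: Clock, Arntl, Per1, Per2, Per3, Cry1, Cry2, Nr1d1, Nr1d2 and Dbp. They were chosen by gene symbol as core clock and clock output genes, and all 10 were found among the 54146 gene IDs of the files. Total RNA of 6 skin samples was sequenced, 3 from control mice (CON) and 3 from mice under chronic restraint stress (CRS), a model of psychological stress in which an animal is repeatedly confined. The skin was taken after 12 weeks. The sources used here give no strain, sex, age, body site, hair cycle stage or hour of sampling, so no circadian time could be assigned to a library. The values are FPKM, fragments scaled by exon length and library size, and the depth recovered from them was 13.3 to 25.7 M fragments per library.

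The mammalian clock is a transcriptional feedback loop present in nearly every cell, skin included. CLOCK and BMAL1, the product of Arntl, bind DNA together and activate the Per, Cry, Nr1d and Dbp genes. The PER and CRY proteins then inhibit CLOCK and BMAL1, and the NR1D proteins (REV-ERB) repress Arntl in a further loop. In mouse peripheral tissues Arntl therefore peaks when Nr1d1 and Dbp are low, Per transcripts follow Nr1d1 and Dbp, and Cry1 comes later still. In mouse skin clock genes are active in keratinocytes, hair follicles and dermal cells.

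The promoters that hold a clock motif are shown because the loop acts through such sites. RefSeq start-site windows of build GRCm38.p6 were matched by symbol for 9 of the 10 members, in 13 windows, of which the 250 bases before the start site were searched on both strands. No window was matched for Per2. The motifs were the E-box CACGTG, bound by CLOCK and BMAL1, the D-box TTATGTAA, bound by DBP and its relatives, the cyclic AMP element TGACGTCA and the RORE core TAGGTCA, read by the ROR and NR1D receptors. Of 32851 mouse windows of this length 6.02% held the E-box, 0.819% the D-box, 1.55% the cyclic AMP element and 2.23% the RORE core. The E-box lay in 1 window of Cry1, from 60 to 55 bases before the start site, and in 1 of the 2 windows of Per1, from 166 to 161 bases before it. The window of Per3 held 2 D-boxes, from 205 to 198 and from 158 to 151 bases before the start. The other members' windows held none of the 4 motifs, which says only that these letters are not in these windows. The sequences are written 5′ to 3′ on the gene's strand, with motifs in capitals. They lie at chr4:151044666-151044915 (minus strand) for Per3, chr10:85185055-85185304 (minus) for Cry1 and chr11:69098699-69098948 (plus) for Per1.
Per3: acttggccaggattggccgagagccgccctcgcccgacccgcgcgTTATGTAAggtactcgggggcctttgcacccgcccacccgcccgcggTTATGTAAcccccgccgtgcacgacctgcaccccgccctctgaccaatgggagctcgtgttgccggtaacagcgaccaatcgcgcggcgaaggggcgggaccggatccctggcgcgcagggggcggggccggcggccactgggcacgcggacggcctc
Cry1: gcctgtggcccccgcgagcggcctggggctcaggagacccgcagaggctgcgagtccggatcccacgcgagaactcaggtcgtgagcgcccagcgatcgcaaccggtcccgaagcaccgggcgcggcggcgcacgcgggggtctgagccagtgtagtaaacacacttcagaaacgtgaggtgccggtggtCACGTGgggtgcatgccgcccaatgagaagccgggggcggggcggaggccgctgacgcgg
Per1: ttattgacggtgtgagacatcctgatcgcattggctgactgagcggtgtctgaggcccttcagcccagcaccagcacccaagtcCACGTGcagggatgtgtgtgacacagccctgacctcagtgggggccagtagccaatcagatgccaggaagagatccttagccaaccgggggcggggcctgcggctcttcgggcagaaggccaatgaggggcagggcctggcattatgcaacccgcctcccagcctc

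Several libraries stood apart. CON replicate 1 held 15.3% mitochondrial fragments against 2.50% to 4.19% in the others, and its 6 skeletal muscle markers summed to 11414 FPKM against 408.2 to 2310 FPKM in the others. Xist, the transcript of the inactive X chromosome, stood at 2.80 FPKM there and at 0.0221 to 0.168 FPKM elsewhere, while Ddx3y, a Y-linked gene, was at 8.68 to 32.7 FPKM in every library. Whether CON replicate 1 came from 1 mouse was not tested. Without it the members' fold changes had a median of -0.12 and 0 were called. CRS replicate 2 was the highest of the 6 libraries for 39.9% of the 14371 genes whose mean reached 1 FPKM. Its deviation also followed exon length. In CRS replicate 2 the median log2 deviation from the mean of the 6 libraries was 0.69 for the 4759 genes with at least 5000 nt of exon and -0.71 for the 4189 genes under 2000 nt. In CRS replicates 1 and 3 it was -0.42 and -0.58 for the long genes and 0.39 and 0.14 for the short ones. The 10 clock genes have 2993 nt (Dbp) to 13727 nt (Clock) of exon. The keratinocyte markers Krt5, Krt14, Krt1 and Krt10 summed to 1659 to 2037 FPKM in CON and 2094 to 2803 FPKM in CRS, and the hepatocyte markers Alb, Apoa1 and Ttr to 0.525 to 1.40 FPKM. The groups also did not overlap in the sums of hair shaft markers (Krt31, Krt33a and Krt86, 696.5 to 2333 FPKM in CON and 2368 to 4357 FPKM in CRS) or of melanocyte markers (Mlana, Pmel, Dct and Tyrp1, 250.6 to 286 FPKM and 169.4 to 194.3 FPKM). Krt85, also listed for the hair shaft, was not matched to a single gene ID. Among the keratinocyte, hair shaft and melanocyte markers taken singly, only Krt14, Krt86, Mlana and Dct did not overlap. Krt5, Krt1, Krt10, Krt31, Krt33a, Pmel and Tyrp1 did. All 6 skeletal muscle markers had a fold change below 0. Of these, Mylpf and Pvalb lay wholly lower in CRS, while Acta1, Myh4, Ckm and Tnnt3 overlapped. Among the 28389 genes tested, 1.65% lay wholly higher in CRS and 5.19% wholly lower. The part of these cell types in the comparison of stressed and control mice was not tested. In whole skin, fewer cells of a type and less RNA per cell cannot be told apart.

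The clock genes were expressed at low levels. Mean levels over the 6 libraries ran from 2.13 FPKM for Arntl to 8.88 FPKM for Nr1d2, and each value rests on 45 to 2318 fragments. In order of mean FPKM, Nr1d2 was followed by Cry1 at 5.25, Nr1d1 at 4.48, Per3 at 3.82, Dbp at 3.63, Per1 at 3.62, Cry2 at 3.40, Clock at 2.61, Per2 at 2.44 and Arntl at 2.13. Neighbours in this order differed by less than the spread between mice of 1 group, except that Nr1d2 exceeded Cry1 in each of the 6 libraries. In the control group the mean and SD were 8.95 ± 1.62 FPKM for Nr1d2 and 5.25 ± 0.90 FPKM for Cry1 (n = 3).

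Arntl, the non-redundant activator of the loop, stood at 2.26, 1.85 and 2.50 FPKM in CON replicates 1 to 3 and at 1.67, 2.73 and 1.79 FPKM in CRS. It was the steadiest member, with a log2 SD over the libraries of 0.28, which 9.89% of the 14371 genes undercut. The groups overlapped, CRS replicate 2 being the highest and CRS replicate 1 the lowest. Clock, its DNA-binding partner, stood at 3.18, 2.08 and 3.39 FPKM in the controls, against 2.25, 3.44 and 1.31 FPKM under stress. Here CRS replicate 3 was the lowest, and the groups overlapped.

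Nr1d1, the REV-ERB alpha repressor of Arntl, varied most. It stood at 5.23, 3.18 and 1.66 FPKM in the controls, against 1.64, 13.2 and 2.00 FPKM under stress. CRS replicate 2 was 8.05 times CRS replicate 1, and the log2 SD of 1.15 exceeded that of 89.0% of the 14371 genes. Without CRS replicate 2 the highest library was still 3.19 times the lowest. Exons of Nr1d1 share 263 nt, or 8.55% of its length, with Thra on the opposite strand, so reads of the pair cannot be separated there if the counting did not use strand. Nr1d2, which encodes REV-ERB beta, stood at 10.4, 9.16 and 7.23 FPKM in the controls, against 4.85, 16.7 and 4.94 FPKM under stress. For both genes CRS replicate 2 was far above the other libraries. For Nr1d2, CRS replicates 1 and 3 were the lowest of the 6.

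Dbp, a PAR bZIP activator and direct output of the loop, stood at 4.03, 3.74 and 1.13 FPKM in the controls, against 2.95, 6.48 and 3.42 FPKM under stress. The lowest library was CON replicate 3, with 45 fragments, and the highest CRS replicate 2. Dbp shares 539 nt, or 18.0% of its exon length, with Sphk2 on the opposite strand. Tef and Hlf encode its PAR bZIP relatives. Tef did not share the low value of CON replicate 3. For Hlf that library was the lowest control, though CRS replicate 3 was lower still. Tef stood at 10.5, 9.43 and 9.81 FPKM in the controls, against 7.63, 17.1 and 6.53 FPKM under stress, and Hlf at 1.82, 1.65 and 1.44 FPKM and 1.95, 2.98 and 1.22 FPKM.

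The Per genes encode the inhibitors that close the loop. Per1, which also answers acute signals such as glucocorticoids, stood at 3.66, 3.51 and 3.37 FPKM in CON, the narrowest control range of all members. In CRS it stood at 2.46, 7.12 and 1.62 FPKM, so 2 stressed mice lay below all controls and the other above them. Per2 had the same layout, with 2.66, 1.94 and 2.33 FPKM in the controls, against 1.35, 4.80 and 1.57 FPKM under stress. Per3, a paralogue dispensable for the core rhythm, differed, with 3.95, 2.83 and 5.39 FPKM in the controls, against 3.81, 5.35 and 1.62 FPKM under stress. It was the one member highest in a control library, CON replicate 3, where Dbp was lowest.

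The cryptochromes are the partners of the PER proteins. Cry1 stood at 4.83, 6.28 and 4.64 FPKM in the controls, against 3.38, 8.30 and 4.06 FPKM under stress. Cry2 stood at 3.47, 2.64 and 3.02 FPKM in the controls, against 2.85, 5.96 and 2.47 FPKM under stress. Cry1 exceeded Cry2 in all 6 libraries, by 1.19 to 2.38 times. Without CRS replicate 2 the highest library was 1.40 times the lowest for Cry2 and 1.86 times for Cry1.

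**Figure D1:**
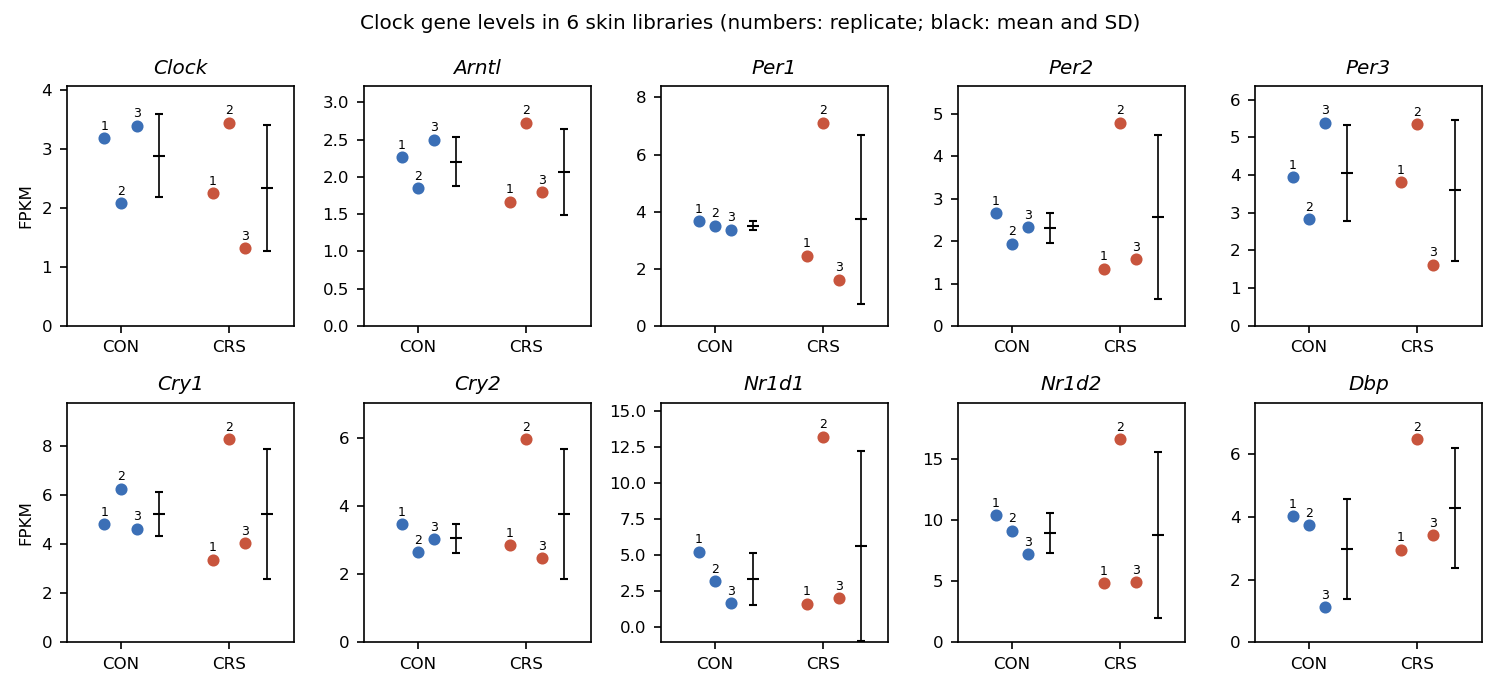
FPKM of the 10 clock genes in the 3 CON (blue) and 3 CRS (red) skin libraries; small numbers are replicates, and black marks are the group mean with its SD. CRS replicate 2 is the highest library for 9 of the 10 genes, while CRS replicates 1 and 3 lie among or below the controls.

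CRS replicate 2 was the highest library for 9 members, against a background of 39.9% of the 14371 genes. Among the genes with at least 3000 nt of exon that share was 59.6%. Members were lowest in CRS replicate 1 (5 genes), CRS replicate 3 (4 genes) and CON replicate 3 (1 gene), where 26.7%, 31.9% and 5.27% of the 14371 genes were lowest. CON replicate 3, the highest library for Per3, was so for 14.6% of them. The median log2 deviation of the members was 0.92 in CRS replicate 2, -0.36 in CRS replicate 1 and -0.59 in CRS replicate 3. The median over the 14371 genes was 0.27, -0.26 and -0.32 in the same libraries. After the trend over exon length was subtracted, an alternative chosen after seeing the data, the members' medians were 0.48, 0.058 and -0.094. The endothelial markers Pecam1, Cdh5 and Kdr summed to 21.1 FPKM in CRS replicate 2 and 24.9 FPKM in CON replicate 1, against 3.71 to 8.31 FPKM in the others. Nr1d1, Nr1d2, Per1, Per2, Cry2 and Dbp were also highest in those 2 libraries, while Clock, Arntl, Per3 and Cry1 were not. The part of cell makeup in these levels was not tested.

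**Figure D2:**
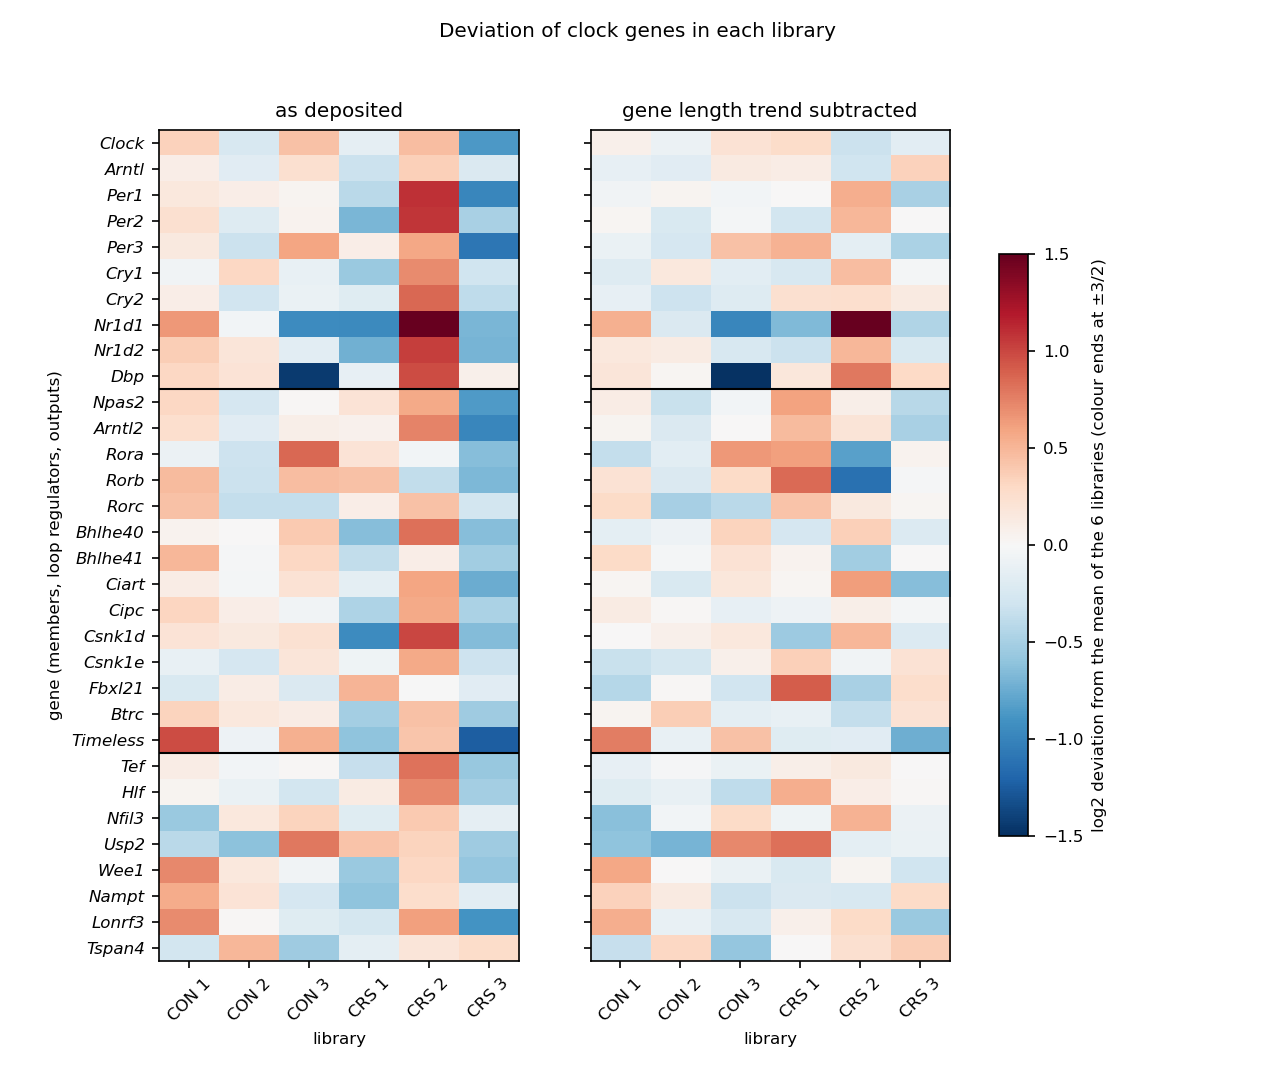
Log2 deviation of each gene from its mean over the 6 libraries (columns), as deposited and with the gene length trend subtracted; lines divide the 10 members from 14 of the loop regulators and 8 outputs. The CRS replicate 2 column is red for all members as deposited, while with the trend subtracted Clock, Arntl and Per3 are blue there and the other 7 members stay red, Nr1d1 (1.77) most.

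Ratios between members within a library do not depend on how the library as a whole was scaled. They can still carry the trend over exon length, as Arntl has 7523 nt, Nr1d1 3077 nt and Dbp 2993 nt. Ratios with that trend subtracted were not computed. Nr1d1 over Arntl, a repressor over its target, was 2.31, 1.72 and 0.665 in CON and 0.984, 4.84 and 1.11 in CRS. The highest ratio was 7.28 times the lowest. Dbp over Arntl was 1.78, 2.02 and 0.452 in CON and 1.77, 2.38 and 1.91 in CRS, so 5 libraries lay close together and CON replicate 3 stood apart. CON replicate 3 thus had the lowest ratio to Arntl for Nr1d1, Dbp and Cry1 alike. CRS replicate 2 had the highest for Nr1d1, Nr1d2, Dbp, Per1 and Per2.

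The Per genes gave a different order. Per2 over Arntl was 1.18, 1.05 and 0.930 in CON and 0.810, 1.76 and 0.877 in CRS. Per3 over Arntl was 1.74, 1.53 and 2.15 in CON and 2.29, 1.96 and 0.903 in CRS, with CRS replicate 3 lowest. Per1 over Per2 was 1.37, 1.81 and 1.45 in CON and 1.82, 1.48 and 1.03 in CRS. Per3 over Dbp, a ratio chosen after its values were seen, was 4.76 in CON replicate 3 and 0.473 to 1.29 in the other libraries. These 2 transcripts peak close together in mouse tissues, and in CON replicate 3 they stood at opposite ends of their ranges.

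Per1 over Arntl was 1.62, 1.90 and 1.35 in CON and 1.47, 2.61 and 0.904 in CRS, a range of 2.89 times. Cry1 over Arntl ran from 1.86 in CON replicate 3 to 3.40 in CON replicate 2, and Nr1d2 over Arntl from 2.75 in CRS replicate 3 to 6.11 in CRS replicate 2. Cry1 over Nr1d1 was lowest in CRS replicate 2 at 0.629, next in CON replicate 1 at 0.924, and 1.97 to 2.79 in the other 4 libraries. Npas2, a paralogue of Clock, was near the detection floor at 0.083 to 0.389 FPKM, from 10 to 48 fragments. Its ratio to Nr1d1 was 0.0295 to 0.172.

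On the log2 scale the group means of Nr1d1 over Arntl were 0.47 ± 0.94 in CON and 0.80 ± 1.28 in CRS (SD, n = 3), and those of Dbp over Arntl 0.23 ± 1.20 and 1.00 ± 0.22. For each of the 10 ratios fixed for this comparison the groups overlapped. The difference between group means stayed under the larger of the SDs within groups in each. Its sign rested on single libraries for 9 of the 10 ratios. For Nr1d1 over Arntl the log2 difference of 0.34 was -0.40 without CRS replicate 2 and -0.19 without CON replicate 3. For Dbp over Arntl the log2 difference of 0.77 kept its sign whichever library was left out. It was only 0.078 without CON replicate 3, so its size rests on that library.

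**Figure D3:**
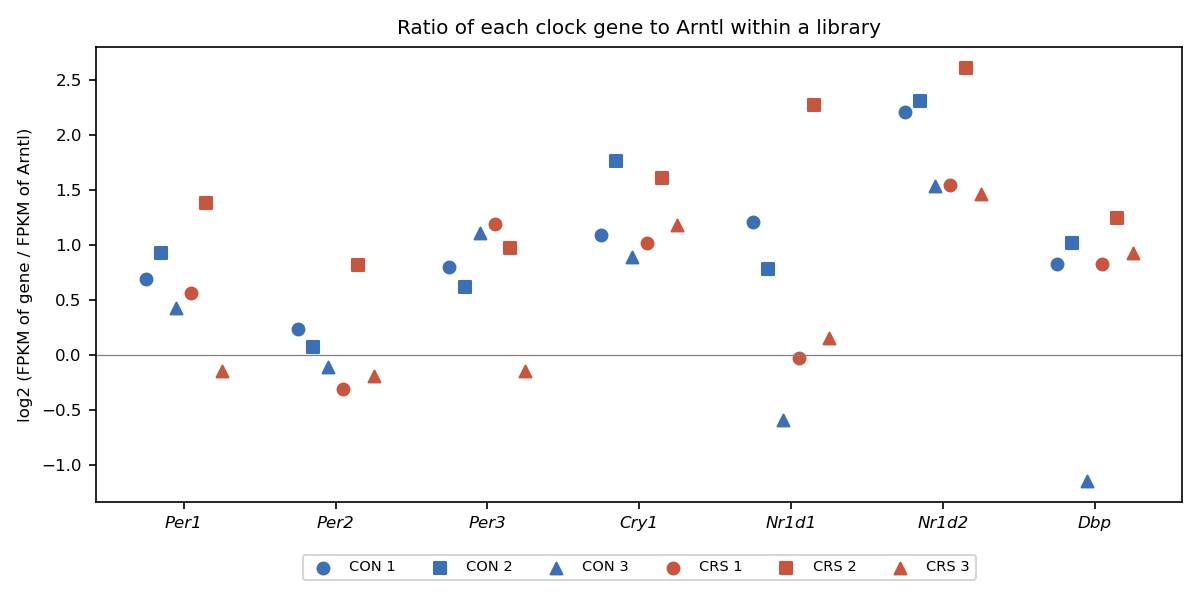
Log2 ratio of the FPKM of 7 clock genes to that of Arntl in the same library; colour gives the group and symbol the replicate. Nr1d1 spans the widest range, and Dbp is low in CON replicate 3 alone.

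Across the 6 libraries 43 of the 45 pairs of members had a Pearson r above 0 on the log2(FPKM + 0.1) scale, with a median of 0.77. Over all pairs of the 14371 genes 57.5% had r above 0 with a median of 0.16, and over pairs of the 8157 genes with at least 3000 nt of exon 78.5% did, with a median of 0.58. Among the members the median was 0.60 without CRS replicate 2 (38 pairs above 0), 0.47 under median-ratio scaling (40 pairs) and 0.19 with the gene length trend subtracted (27 pairs). Under median-ratio scaling 50.4% of all gene pairs were above 0 (median 0.01), and 58.5% of those among the longer genes (median 0.17). With the trend subtracted 49.9% were above 0 in either set (median 0.00). By exact permutation 18 pairs had an unadjusted p under 0.05 and 0 passed after Benjamini-Hochberg adjustment over the 45, by Pearson or by Spearman. The pair of highest r was Clock and Per3 (r = 0.96, exact permutation p = 0.00278, adjusted p = 0.0625; rho = 0.94, p = 0.0167, adjusted p = 0.0938), with r = 0.85 without the 2 libraries farthest from the median of Clock. These are also the members with the longest exons, 13727 and 9608 nt. Nr1d1 and Nr1d2 followed each other (r = 0.93, exact permutation p = 0.00694, adjusted p = 0.0625; rho = 0.94, p = 0.0167, adjusted p = 0.0938), with r = 0.70 without the 2 farthest libraries.

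Arntl did not run opposite to its repressors in the deposited values. Its r with Nr1d1 was 0.64 (exact permutation p = 0.169, adjusted p = 0.252; rho = 0.66, p = 0.175, adjusted p = 0.246) and -0.030 without the 2 farthest libraries, CRS replicates 1 and 2. With Nr1d2 its r was 0.78 (exact permutation p = 0.0778, adjusted p = 0.167; rho = 0.83, p = 0.0583, adjusted p = 0.131) and 0.38 without those 2. With Dbp r was 0.026 (exact permutation p = 0.956, adjusted p = 0.956; rho = 0.43, p = 0.419, adjusted p = 0.472). That value lay at 0.96 without CON replicate 3 and at -0.59 without CRS replicate 2, so it rests on those libraries. Under median-ratio scaling the r of Arntl was 0.10 with Nr1d1, 0.061 with Nr1d2 and 0.051 with Per1.

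With the gene length trend subtracted, many of these signs turned. Arntl then had r below 0 with 6 of the 8 members other than Clock, and Clock with 7 of the 8 other than Arntl, against 0 of 8 and 1 of 8 in the deposited values. Over all pairs of the 14371 genes 49.9% had r above 0 with the trend subtracted, against 57.5% as deposited. Arntl stood at r = -0.89 with Nr1d2 (exact permutation p = 0.0333, adjusted p = 0.331; rho = -0.71, p = 0.136, adjusted p = 0.383) and at -0.97 without the 2 farthest libraries. With Nr1d1 it stood at r = -0.77 (exact permutation p = 0.0653, adjusted p = 0.331; rho = -0.77, p = 0.103, adjusted p = 0.383), and leaving out each library in turn kept r between -0.90 and -0.59. With Per1 it stood at r = -0.87 (exact permutation p = 0.025, adjusted p = 0.331; rho = -0.83, p = 0.0583, adjusted p = 0.383), and at -0.34 without the 2 farthest libraries, CRS replicates 2 and 3. Nr1d1 and Nr1d2 were at r = 0.94. The division was not one of activators against inhibitors. Per3 ran with Clock (r = 0.83) and was at 0.11 with Arntl, while it stood at -0.41 with Nr1d1, -0.45 with Nr1d2, -0.51 with Cry1 and -0.55 with Dbp. Clock, Per3 and Arntl are also the members with the longest exons, at 13727, 9608 and 7523 nt. Arntl and Cry2 were at r = 0.14. On this scale 6 pairs had an unadjusted p under 0.05 by exact permutation and 0 of 45 passed after adjustment, the lowest adjusted p being 0.188. The subtraction was chosen after the deposited values were seen, and the signs that it turns are a description.

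**Figure D4:**
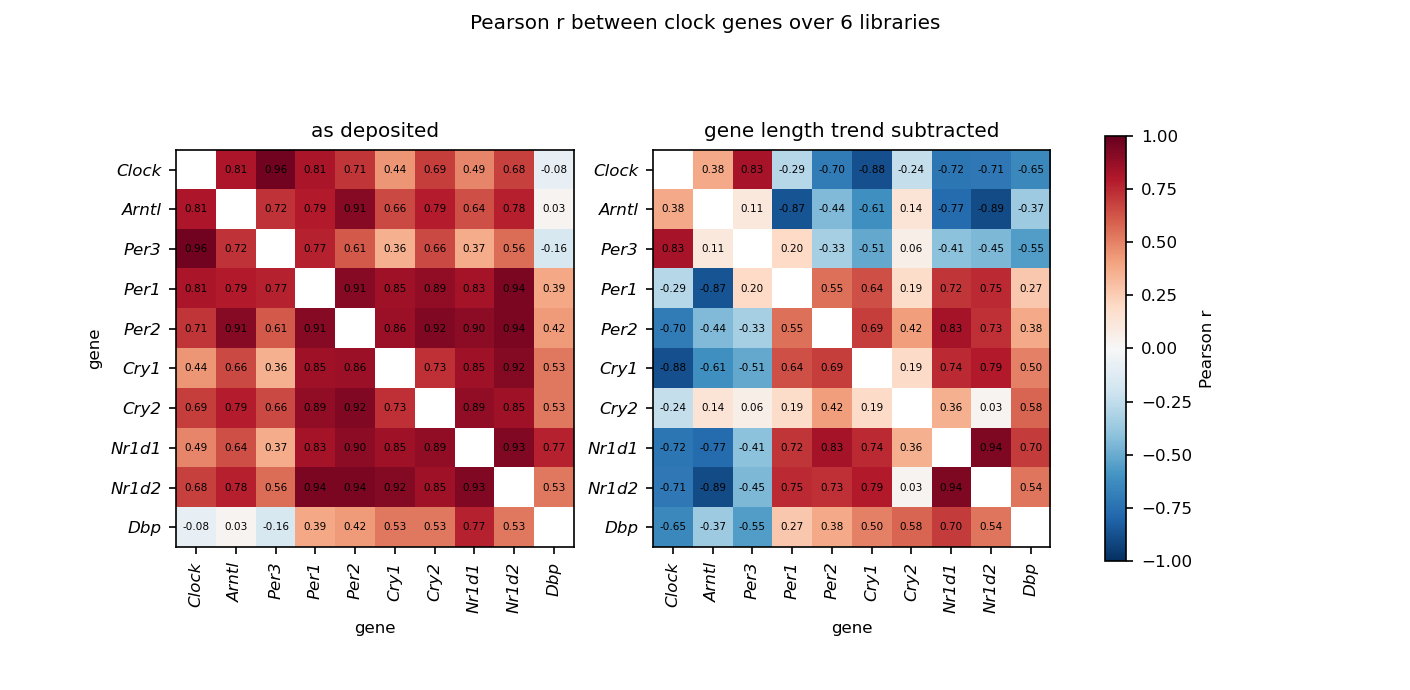
Pearson r between the 10 clock genes over the 6 libraries, as deposited and with the gene length trend subtracted. As deposited 43 of 45 values are above 0, while with the trend subtracted 27 are, and the rows of Clock and Arntl turn blue against Nr1d1 and Nr1d2 but not against Per3.

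None of the 10 clock genes was called between stressed and control mice. With limma's moderated test, adjusted over 28389 genes, 0 members were higher and 0 lower, with 0 in either direction also at an unadjusted p under 0.05. Limma voom on the recovered fragments also called 0 genes. Over all genes tested 0% were called either way after adjustment, and at an unadjusted p under 0.05 0.919% were higher and 1.63% lower. Log2 fold changes were above 0 for 3 members and below 0 for 7, with a median of -0.11, beside a median of -0.20 over all genes, of which 32.2% were above 0. Relative to that median 7 members were above and 3 below. Groups overlapped for all 10 members, where 1.65% of all genes lay wholly higher in CRS and 5.19% wholly lower.

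Dbp had the largest log2 fold change of the 10, 0.62 (SE 0.55, limma adjusted p = 0.9999), from 2.97 ± 1.60 FPKM in CON to 4.28 ± 1.92 FPKM in CRS (SD, n = 3). Without CON replicate 3 it was 0.055, so the difference rests on that mouse. Clock had the lowest, -0.36 (SE 0.45, limma adjusted p = 0.9999), and -0.018 without CRS replicate 3. The activator Arntl was at -0.11 (SE 0.39). The repressors Nr1d1 and Nr1d2 were at 0.22 (SE 0.78) and -0.26 (SE 0.50). Per1, Per2 and Per3 were at -0.19 (SE 0.53), -0.069 (SE 0.52) and -0.28 (SE 0.49), and Cry1 and Cry2 at -0.098 (SE 0.40) and 0.20 (SE 0.42). The adjusted p of limma was 0.9999 for every member, and the exact two-sided permutation p was 0.6 to 1, where 0.1 is the smallest that 3 against 3 mice allow. An SE of 0.39 to 0.78 leaves changes of that size undetectable here. Under median-ratio scaling, where the median of all genes was 0.0014, Arntl, Per1, Per2 and Cry1 turned above 0 beside Cry2, Nr1d1 and Dbp. On that scale 7 members were above 0 and 3 below.

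The direction rested on which stressed library was left out. Without CRS replicate 2, 9 of 10 members had a fold change below 0 and their median was -0.63. Per1 was then at -0.78 (SE 0.25, limma adjusted p = 0.229) and Nr1d2 at -0.84 (SE 0.21, limma adjusted p = 0.192), the 2 members with an unadjusted p under 0.05. Without that library 14.6% of all genes were lower at that threshold and 2.49% higher. Nr1d1 turned from 0.22 to -0.71 and Cry2 from 0.20 to -0.18. Dbp alone was above 0, at 0.28. The balance turned without CRS replicate 3, with 8 members above 0 and a median of 0.18, and without CRS replicate 1, with 7 above 0 and a median of 0.098. With array weights, which give less weight to libraries that vary more, Per1, Per3, Nr1d2 and Clock had an unadjusted p under 0.05 and lay below 0, where 23% of all genes were lower and 3.91% higher.

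**Figure D5:**
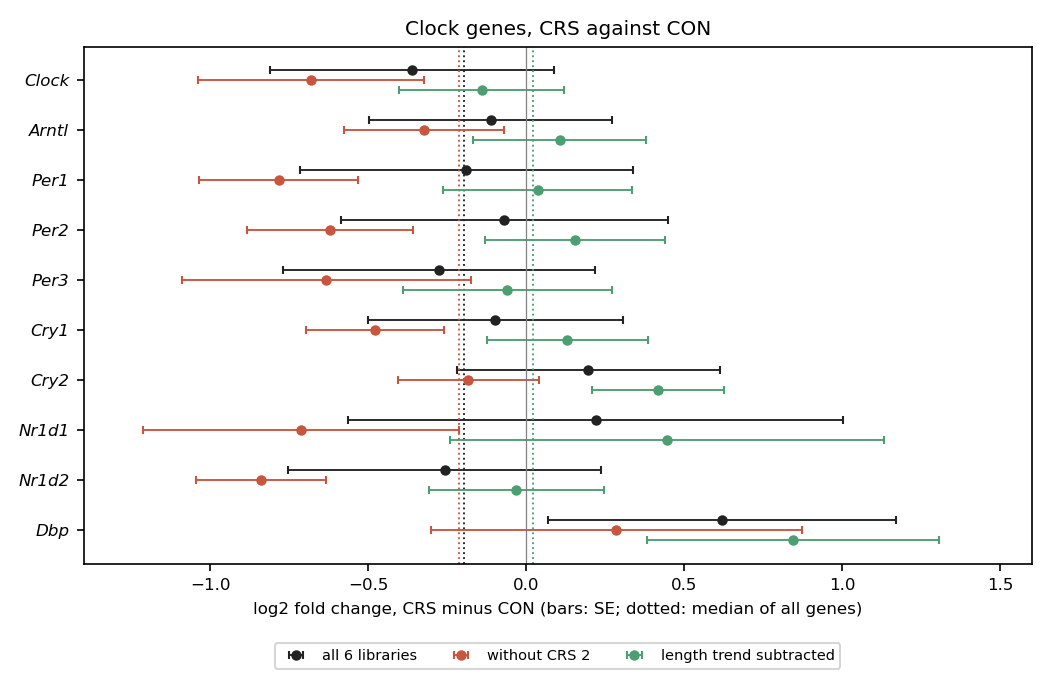
Log2 fold change of each clock gene, CRS minus CON, with its SE, for all 6 libraries (black), without CRS replicate 2 (red) and with the gene length trend subtracted (green); dotted lines are the medians of all genes. With all libraries each bar but that of Dbp spans 0, and without CRS replicate 2 all members but Dbp lie below 0.

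Among 15 further regulators of the loop 0 were called and 0 had an unadjusted p under 0.05, and 12 of the 15 fold changes were below 0 (median -0.30). Over all genes tested 32.2% were above 0 (median -0.20). The lowest p belonged to Timeless, a partner of the replication fork with a debated clock role in mammals, at 4.65, 2.19 and 3.40 FPKM in the controls, against 1.50, 3.12 and 0.928 FPKM under stress. The log2 fold change of Timeless was -0.95 (SE 0.52, limma adjusted p = 0.9999). Bhlhe41, a repressor that competes for E-boxes, was at -0.53 (SE 0.37), and Csnk1d, a kinase of PER, at -0.39 (SE 0.49). Csnk1d stood at 22.9, 22.0 and 23.3 FPKM in the controls, against 10.3, 39.8 and 12.6 FPKM under stress, the same layout as Per1 and Per2. Rora, an activator of Arntl, was highest in CON replicate 3 at 19.6 FPKM, against 6.91 to 12.5 FPKM in the other libraries.

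Of 8 clock output genes 0 were called, 0 had an unadjusted p under 0.05, and 4 were above and 4 below 0 (median -0.0068). By the rule of lowest p they were led by Wee1, a cell cycle kinase gene under E-box control, at -0.55 (SE 0.38), then Nampt, an enzyme of NAD synthesis, at -0.34 (SE 0.35), Lonrf3 at -0.36 (SE 0.60) and Tspan4 at 0.21 (SE 0.35). Usp2, a deubiquitinase gene, stood at 9.59, 8.31 and 22.1 FPKM in the controls, against 17.2, 16.1 and 8.75 FPKM under stress. Nfil3 encodes the repressor that opposes DBP at D-boxes. Its levels were 11.0, 18.2 and 20.5 FPKM in the controls, against 14.2, 21.4 and 14.7 FPKM under stress.

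Glucocorticoids rise under restraint and act on Per1 in mice, so 6 other glucocorticoid targets were read beside it. Tsc22d3 stood at 20.1, 17.4 and 13.2 FPKM in the controls, against 6.80, 11.2 and 7.60 FPKM under stress, with groups that did not overlap. The log2 fold change of Tsc22d3 was -0.99 (SE 0.33, limma adjusted p = 0.9999), the one of the 6 with an unadjusted p under 0.05. Klf9 was at -0.57 (SE 0.44), Errfi1 at 0.36 (SE 0.35), Fkbp5 at -0.23 (SE 0.53), Sgk1 at 0.13 (SE 0.28) and Zbtb16 at -0.019 (SE 0.95). Among 7 immediate early genes 0 had an unadjusted p under 0.05. The lowest p was that of Fos, at 0.51 (SE 0.31), then Jun at -0.65 (SE 0.46), Ier2 at -0.37 (SE 0.28) and Fosb at 0.40 (SE 0.55). Fos lay wholly higher under stress and Ier2 wholly lower. Among the 28389 genes tested, all stressed mice exceeded all controls for 1.65%, and all fell below them for 5.19%. The limma p before adjustment fell below 0.05 with a negative fold change for 1.63%, and with a positive one for 0.919%.

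The genes whose pattern was most like that of Arntl, by Pearson r of log2(FPKM + 0.1) over the 6 libraries among 11670 named genes, were Fzd8 (r = 0.996), Mpp5 (0.988), Rrp12 (0.988), Upf2 (0.982) and Rock2 (0.981). Those least like it were Alkbh6 (-0.983), Bvht (-0.980), Idnk (-0.975), Pex16 (-0.971) and Dynlt1c (-0.969). For Dbp the most alike were Apoe (0.992), Nucb2 (0.992), Ugt1a1 (0.990), Elovl5 (0.986) and Pon3 (0.983). The least alike were Rnf182 (-0.986), Med7 (-0.979), Eif5 (-0.972), Chic2 (-0.954) and Traj27 (-0.954). With 6 points an r far from 0 is easily reached. At a looser cut than the values listed, 702 genes had r of at least 0.9 with Arntl and 40 with Dbp. An r of -0.9 or lower was held by 81 genes with Arntl and 48 with Dbp. None of the 10 genes most like either belonged to the clock lists. Apoe, an apolipoprotein gene, stood at 878, 885.2 and 356.5 FPKM in the controls, against 769.8, 1289 and 894.2 FPKM under stress, low in CON replicate 3 as Dbp was.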

How the data were processed

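RNA of 6 skin samples was isolated with Trizol and made into Illumina libraries from 1 µg each, per the labels' protocols. The authors deposited FPKM, 1 file per library. Reads were aligned with HISAT2 to GRCm39, per the submitters' processing notes, while for the counter, annotation and strand setting no name is given in the sources used here. GENCODE M21 (GRCm38) gave symbols and exon lengths and held 54079 of 54146 IDs. Multiplied by exon length, FPKM came in whole steps in every library (98.1% to 98.3% of values up to 100 fragments, within 0.05), which gave depth and fragments.

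The 28389 genes whose mean reached 0.1 FPKM were tested as log2(FPKM + 0.1) with limma 3.58.1 (R 4.3.3), mean-variance trend, two-sided, Benjamini-Hochberg adjustment, threshold 0.05. That scale understates changes of low genes. The fit was also run on simulated data with independent noise for each gene. Those data hold none of the library-wide or length-linked shifts described above, so that run cannot show how the fit handles them. Each library was taken as 1 mouse. The members and lists were chosen with earlier results of these data known. The genes named are all members, from each further list those with an unadjusted p under 0.05 or else the 4 of lowest p, the 5 most and 5 least like Arntl and Dbp, and others picked after their values were seen (Rora, Usp2, Nfil3, Tef, Hlf and the remaining glucocorticoid targets). From the loop regulators 1 gene that the rule names is not reported here. The length trend was a lowess (span 0.3) over log2 exon length of the deviations in each library, fitted on genes of at least 1 FPKM and subtracted. The alternatives were other pseudocounts, filters, scalings and variance models, array weights, a replicate block, libraries left out, and voom on recovered fragments.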

Additional observations from a re-analysis of the deposited data

How the results depend on the processing

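Under 18 other settings of the fit 0 members and 0 further clock genes were called, the lowest adjusted p of a member being 0.0957 (Per1, array weights). Of the 180 member values under these settings 150 kept their sign, and 30 turned. Median-ratio and upper-quartile scaling turned Arntl (0.11 and 0.093), Per1 (0.031 and 0.016), Per2 (0.15 and 0.13) and Cry1 (0.13 and 0.11), and subtraction of the gene length trend turned the same 4 to 0.11, 0.035, 0.15 and 0.13. Array weights turned Cry2 to -0.21 and Nr1d1 to -0.47, and leaving out both CON replicate 1 and CRS replicate 2 turned them to -0.088 and -0.33. With each library left out in turn the range was -0.32 to 0.016 for Arntl, -0.78 to 0.25 for Per1, -0.62 to 0.26 for Per2, -0.63 to 0.20 for Per3, -0.48 to 0.16 for Cry1, -0.18 to 0.43 for Cry2, -0.71 to 0.75 for Nr1d1 and -0.84 to 0.038 for Nr1d2. Array weights put 4 members and 10 further clock genes under an unadjusted p of 0.05, where 23% of all genes were lower and 3.91% higher. The fit without CRS replicate 2 put 2 members and 8 further clock genes there, where 14.6% of all genes were lower and 2.49% higher. The cause of these moves was not tested.

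The number of pairs with r above 0 went from 43 to 27 of 45 with the length trend subtracted, where the share over all gene pairs went from 57.5% to 49.9%. That step turned Arntl with Nr1d1 to -0.77, with Nr1d2 to -0.89, with Per1 to -0.87, with Per2 to -0.44 and with Dbp to -0.37. Arntl with Dbp also turned under median-ratio scaling (-0.20) and ran from -0.59 to 0.96 with each library left out. Per3 with Dbp, at -0.16, ran from -0.60 to 0.59. For the 10 ratios within a library, the group difference changed sign in 18 of the 60 fits with 1 library left out, in 9 of the 10 ratios. With the replicate number as a replicate block the fold changes were as before, Dbp at 0.62 (SE 0.52), and 0 members were called. Same-numbered libraries did not deviate together (r of -0.30, -0.043 and 0.097 for replicates 1 to 3), so the numbers were not taken as pairs. With 3 libraries a group, the spread between libraries limits what can be seen. Each library was taken as 1 mouse, so spread between mice and between library preparations cannot be told apart.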
